A study of Mus musculus with 16 samples.

Results

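Hox genes encode homeodomain transcription factors that lie in clusters on separate chromosomes and give cells of the embryo their position along the body axis, with genes at one end of a cluster used toward the head and those at the other end toward the tail. Tbx genes encode T-box transcription factors, of which Tbx2, Tbx3, Tbx4 and Tbx5 act in limb, heart and lung development. In the developing mouse lung, Tbx4 and Tbx5 act in the mesenchyme around the airway buds, and adult mesenchymal cells often keep the Hox code of their place of origin. The genes described here are the rows of a mouse tumour cell expression table whose symbol is Hoxa, Hoxb, Hoxc or Hoxd or Tbx followed by a number. They were chosen by gene name, and those tested were selected on their measured level, as given below. They were 44 of 24334 rows, 33 Hox genes and 11 Tbx genes.

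The libraries came from enriched tumour cells of mice that carried LLC1 tumours, the mouse Lewis lung carcinoma line. Mice had received DMSO (Vehicle), the MYC inhibitor MYCi975 at 50 mg/kg, TMP195, an inhibitor of class IIa histone deacetylases, at 50 mg/kg, or both compounds (Combo), for 16 days. The dose of each compound in the combination is not stated. RNA sequencing gave 4 libraries in each of the 4 groups, 16 in all. Separate animals are not named in the labels, and p-values therefore cover the spread among libraries alone, part of which may be technical. How the tumour cells were enriched is not given in the labels.

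Values are the deposited variance-stabilised levels on a log2 scale, on which 4.84 is the value of a gene without reads. The number of reads per library is unknown, and 1960 to 3130 genes per library stood at that minimum. These levels are not scaled per length, so levels are compared between libraries and not between genes. Because stabilisation draws low values together, a log2 difference of a weakly expressed gene understates its fold change. The labelled cell type fitted its markers in part: keratin genes Krt8 (10.17 to 10.97) and Krt18 (10.18 to 11.45) lay far above the minimum in every library, while the median of the epithelial adhesion gene Epcam and of Cldn4 was at the minimum. Fibroblast genes were present as well, at uneven levels. Among 12 of them, Pdgfra (12.37 to 13.24), Dcn (13.52 to 14.88) and Lum (11.43 to 13.76) lay far above the minimum in all 16 libraries, while Col1a2 (6.39 to 7.51) lay nearer to it and Pi16 (5.64 to 6.14) passed the threshold in 7 libraries. Whether that RNA came from the tumour cells or from other cells cannot be told apart in bulk samples, nor can fewer cells of a type and less RNA per cell.

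Of the 44 genes, 36 lay at least 1 above the minimum in 4 or more of the 16 libraries, and 30 did so in all 16. They were 10 of 11 Hoxa genes, 8 of 9 Hoxb genes, 5 of 7 Hoxc genes, 5 of 6 Hoxd genes and 8 of 11 Tbx genes. Among the Hox genes with a row, a smaller share passed at the tail end of the clusters. All 6 with a row in paralogue groups 1 to 3 and all 15 in groups 4 to 8 passed the threshold. In groups 9 to 13, the end used toward the tail, 7 of 12 passed. Of 52 annotated Hox and Tbx genes with such names, 8 had no row, so these shares do not cover whole clusters. The threshold was the rule by which these genes were picked, so this is a description with no test.

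The 8 genes below the threshold were Hoxa9, Hoxb13, Hoxc10, Hoxc11, Hoxd11, Tbx6, Tbx21 and Tbx22. Tbx21, which encodes T-bet of T and NK cells, lay between 4.84 and 5.35 in the 16 libraries, and the T and NK cell genes Cd2 and Klrb1c had medians of 4.84. Of 8 T and NK cell markers with a row, 2 passed the threshold, Cd3d (5.69 to 6.47, above it in 15 libraries) and Il2rb (5.23 to 6.71, above it in 8 libraries). Tbx6, a gene of the somite-forming mesoderm, lay between 4.84 and 5.56, and Tbx22, a gene of the palate, between 4.84 and 5.51. Hoxb13, Hoxc11, Hoxd11, Tbx6, Tbx21 and Tbx22 reached the threshold in 0 libraries and Hoxa9 in 1 library. Hoxc10 was the gene just outside, with 3 libraries above the threshold, and had levels of 5.25, 5.36, 6.05 and 5.45 in Combo, 5.28, 4.84, 6.07 and 5.53 in MYCi975, 5.42, 5.11, 5.33 and 5.5 in TMP195, and 5.43, 5.61, 5.67 and 6.01 in Vehicle. Tbx1, a gene of the pharyngeal arches and cardiac outflow tract, was just inside with 5 libraries (Combo 2, MYCi975 1, TMP195 1, Vehicle 1).

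Of the 36 genes that passed, 6 did not pass in every library, among them Tbx20, which passed in 12, Hoxc5 in 10, Hoxa13 in 6, Hoxc9 in 6 and Tbx1 in 5. Hoxa13, a gene of the distal limb, was above the threshold in 2 Combo, 0 MYCi975, 2 TMP195 and 2 Vehicle libraries. Hoxc9, a gene of the thoracic spinal cord, was above it in 3 Combo, 2 MYCi975, 0 TMP195 and 1 Vehicle library. Each of these genes passed through libraries of more than 1 group. Hoxc5 and Hoxc10, and Hoxd3 and Hoxd4, share annotated exons, so their values are uncertain.

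**Figure D1:**
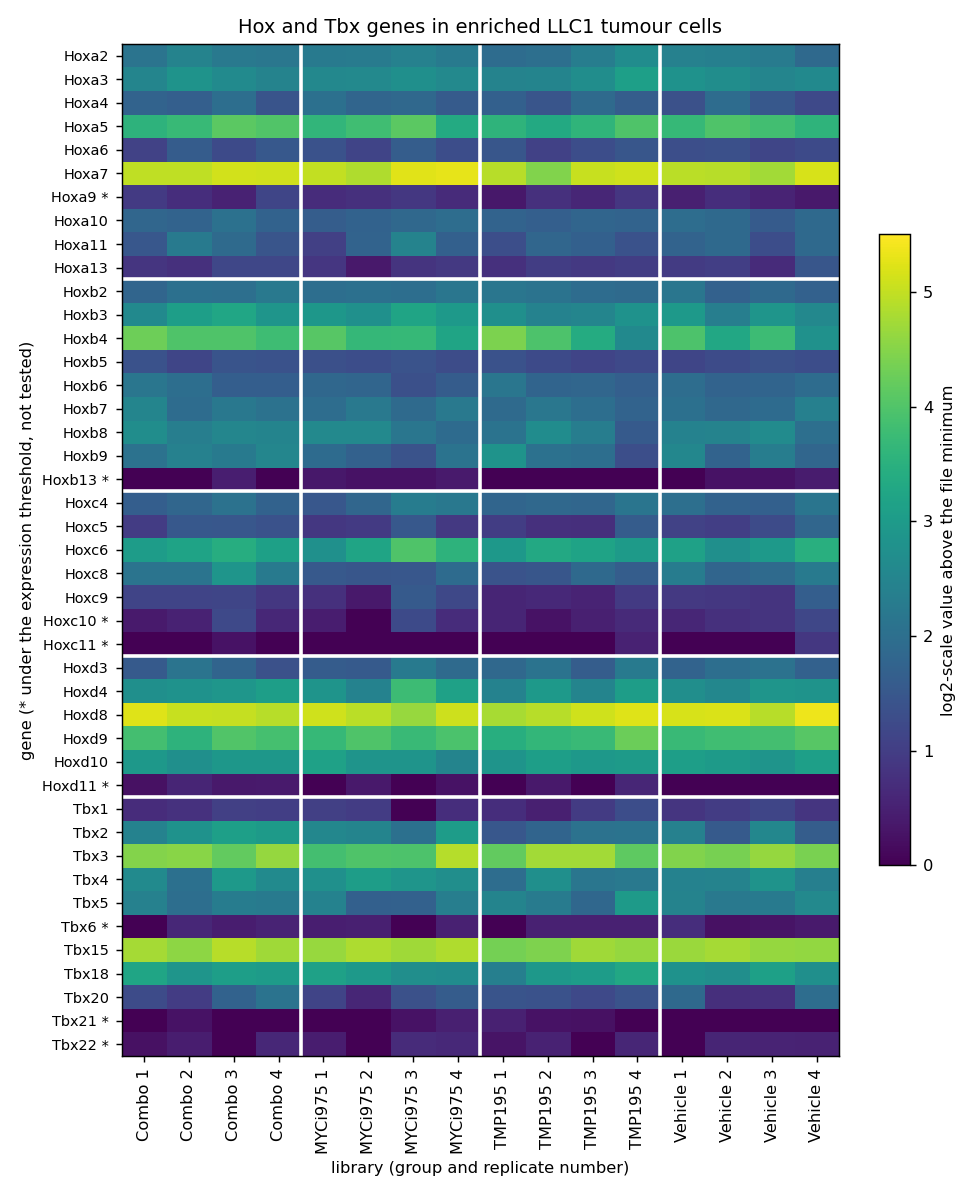
Level of the Hox and Tbx genes reported here (rows, in order of cluster and number) above the minimum of 4.84 (colour, log2 scale) in the 16 libraries (columns, grouped as Combo, MYCi975, TMP195 and Vehicle). Asterisks mark the 8 genes below the expression threshold. Hoxa7, Hoxd8 and Tbx15 stay bright across all 16 libraries, while Hoxb13, Hoxc11 and Hoxd11 stay dark.

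The spread of these genes between libraries was close to that of all genes. The SD between libraries of a group, pooled over groups, had a median of 0.25 (lowest 0.0998, highest 0.51) over the 36 genes, against 0.222 over all 15715 genes tested. The steadiest was Hoxb5, whose 16 values spanned 0.30, between 5.97 and 6.27. Hoxb4, known for its part in expanding haematopoietic stem cells, spanned most among the 36 genes, 1.79, between 7.46 and 9.25. Among Hoxa genes, Hoxa11 spanned 1.42, between 5.89 and 7.31. Tbx15, a gene of skeletal and dermal mesenchyme, kept between 9.19 and 9.75, and Tbx18, a gene of the ureter and sinus node mesenchyme, between 7.21 and 8.14. Tbx3, the closest relative of Tbx2, lay between 8.69 and 9.74. Tbx5 lay between 6.53 and 7.83, and the heart gene Tbx20 between 5.44 and 6.94.

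No Hox or Tbx gene passed the test in any comparison of treatments. With limma and Benjamini-Hochberg adjustment over 15715 genes, 0 of the 36 genes were called between Combo and Vehicle (all genes 0.0%), 0 between MYCi975 and Vehicle (all genes 0.0%) and 0 between TMP195 and Vehicle (all genes 0.0%). The same count of 0 held for Combo against MYCi975 (all genes 0.0%), Combo against TMP195 (all genes 0.0%), the interaction of both compounds (all genes 0.0%) and the F-test among the 4 groups (all genes 0.0%). At an unadjusted p under 0.05, 1 of 36 genes was counted in Combo against Vehicle (all genes 4.09%), 1 in MYCi975 against Vehicle (all genes 3.03%) and 1 in TMP195 against Vehicle (all genes 4.88%). The counts were 1 of 36 in Combo against MYCi975 (all genes 2.32%), 2 in Combo against TMP195 (all genes 5.33%), 1 in the interaction (all genes 3.0%) and 2 in the F-test (all genes 3.83%). These shares are close to those of all genes. In this fit, which leaves out the replicate number, they come from the same 2 genes, Hoxc8 and Tbx2.

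Hoxc8 (ENSMUSG00000001657.8, chromosome 15), which patterns the thoracic skeleton, had levels of 6.95, 6.96, 7.72 and 7.11 in Combo libraries, 6.37, 6.31, 6.33 and 6.76 in MYCi975 libraries, 6.24, 6.32, 6.72 and 6.47 in TMP195 libraries, and 7.16, 6.63, 6.74 and 7.10 in Vehicle libraries. Each Combo library lay above every library of either single compound, and the Combo and Vehicle libraries overlapped. Groups that do not overlap were seen for 1 of 36 genes between Combo and MYCi975, Hoxc8 (all genes 1.71%), and for 2 of 36 between Combo and TMP195, Hoxc8 and Tbx2 (all genes 3.37%). Against Vehicle there were 0 of 36 such genes with Combo (all genes 3.32%), 0 with MYCi975 (all genes 1.5%) and 0 with TMP195 (all genes 2.5%).

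Mean Hoxc8 was 7.18 ± 0.36 in Combo, 6.44 ± 0.21 in MYCi975, 6.44 ± 0.21 in TMP195 and 6.91 ± 0.26 in Vehicle (SD, n = 4 each). The difference was -0.47 for MYCi975 against Vehicle (SE 0.19, 95% interval -0.86 to -0.07, limma unadjusted p = 0.0227, adjusted p = 0.999). For TMP195 against Vehicle it was -0.48 (95% interval -0.87 to -0.08, limma unadjusted p = 0.0208, adjusted p = 0.945). Mean Hoxc8 was thus lower with either compound alone, though neither difference passed the adjustment, and it was not lower with both. Combo differed from Vehicle by 0.27 (95% interval -0.12 to 0.67, limma adjusted p = 0.987). Combo was higher than MYCi975 by 0.74 (95% interval 0.35 to 1.13, limma unadjusted p = 0.000991, adjusted p = 1.0). It was higher than TMP195 by 0.75 (95% interval 0.35 to 1.14, limma unadjusted p = 0.000904, adjusted p = 0.561).

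The interaction, Combo minus MYCi975 minus TMP195 plus Vehicle, was 1.22 for Hoxc8 (SE 0.26, 95% interval 0.66 to 1.77, limma unadjusted p = 0.00025, adjusted p = 1.0). It was the widest departure from additivity among the 36 genes, the lowest being -0.27 for Hoxa4. Combo replicate 3 held the highest Hoxc8 value of the 16 libraries. Without it, Combo exceeded MYCi975 by 0.56, TMP195 by 0.57 and Vehicle by 0.10, and without Vehicle replicate 2 it exceeded Vehicle by 0.18. Without all libraries numbered 4, Combo exceeded MYCi975 by 0.87 and TMP195 by 0.79. The Hoxc8 result did not pass the adjustment over all genes in any setting tried.

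Tbx2 (ENSMUSG00000000093.7, chromosome 11), a T-box repressor that keeps lung mesenchyme dividing in the mouse embryo, had levels of 7.29, 7.65, 7.95 and 7.84 in Combo libraries, 7.38, 7.33, 6.87 and 7.89 in MYCi975 libraries, 6.34, 6.61, 6.92 and 6.93 in TMP195 libraries, and 7.25, 6.41, 7.38 and 6.46 in Vehicle libraries. Every Combo library exceeded every TMP195 library, and the Vehicle libraries split into a high pair and a low pair. Mean Tbx2 was 7.68 ± 0.29 in Combo, 7.37 ± 0.42 in MYCi975, 6.70 ± 0.28 in TMP195 and 6.87 ± 0.51 in Vehicle (SD, n = 4 each). Combo exceeded Vehicle by 0.81 (SE 0.25, 95% interval 0.28 to 1.34, limma unadjusted p = 0.0048, adjusted p = 0.987). Combo exceeded TMP195 by 0.98 (95% interval 0.45 to 1.51, limma unadjusted p = 0.00107, adjusted p = 0.561). MYCi975 differed from Vehicle by 0.49 (95% interval -0.03 to 1.02) and TMP195 from Vehicle by -0.17 (95% interval -0.70 to 0.35). The MYCi975 difference was 0.32 without MYCi975 replicate 4 and 0.18 without all libraries numbered 4, and the TMP195 difference lay between -0.33 without Vehicle replicate 2 and 0.00 (rounded) without Vehicle replicate 3. With array quality weights, Combo against TMP195 passed the adjustment for Tbx2, at 1.06 (limma adjusted p = 0.0448), in a setting that called 65 of all 15715 genes.

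**Figure D2:**
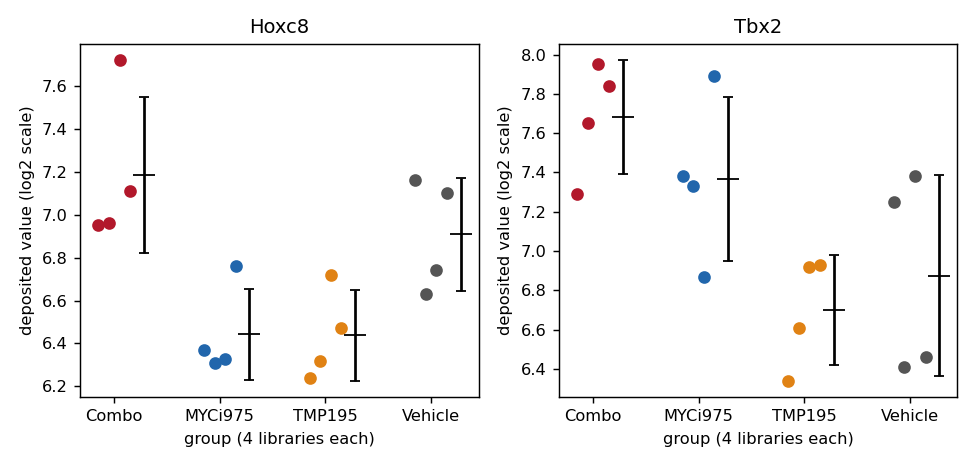
Level of Hoxc8 (left) and Tbx2 (right) on the log2 scale in each library of the 4 groups (points), with the group mean and SD (black bar). Combo libraries of Hoxc8 sit between 6.95 and 7.72, above all MYCi975 (6.31 to 6.76) and TMP195 (6.24 to 6.72) libraries. Combo libraries of Tbx2 sit between 7.29 and 7.95, above all TMP195 libraries (6.34 to 6.93).

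Tbx2 was set beside the fibroblast genes of the same libraries in a fit added after the data were seen, and its slope did not pass the adjustment. The mean level of 12 fibroblast markers, all of which passed the threshold and none of which was at the minimum, ranged from 10.209 to 10.732 in Combo, 9.518 to 10.641 in MYCi975, 9.84 to 10.355 in TMP195 and 10.005 to 10.337 in Vehicle. In a fit of this mean beside the group, Tbx2 differed by 1.03 on the log2 scale for each unit of the marker mean (SE 0.24, limma unadjusted p = 0.000457, adjusted p = 0.119, and 0.422 without the libraries numbered 4). Tbx1 had a slope of 0.81 (limma unadjusted p = 0.00121, adjusted p = 0.195), and of 0.56 without MYCi975 replicate 3 (limma unadjusted p = 0.0957). The fibroblast slope called 0 of the 36 genes and 33 of all 15715 genes (0.21%), and without MYCi975 replicate 3 it called 0 of all genes. With the fibroblast mean in the fit, the Tbx2 difference was 0.56 for Combo against Vehicle and 0.59 for Combo against TMP195. The mean level of 7 leukocyte markers (of 9) lay higher in TMP195, at 6.21 to 7.84, against 5.89 to 6.46 in Vehicle. The threshold picked these 7, and they passed it in 4 (Ikzf1), 7 (Cd53) and up to 16 libraries (Lcp1). A marker may thus have entered the mean through the group in which it was high. With the leukocyte mean in the fit, Tbx2 in TMP195 differed from Vehicle by 0.18 instead of -0.17.

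The slope on leukocyte markers called 0 of the 36 genes and 66 of all genes (0.42%). At an unadjusted p under 0.05, the slope counted 4 of 36 genes for leukocytes (all genes 8.6%), 4 for T and NK cells (all genes 9.37%), 2 for fibroblasts (all genes 7.14%) and 2 for endothelium (all genes 10.2%), and 0 were called for T and NK cells (all genes 0.0%) or endothelium (all genes 0.0%). The T and NK mean rested on 2 of 12 listed markers, Cd3d and Il2rb, and the endothelium mean on 4 of 12. These 2 slopes are therefore weak measures of those cells. The part of these cells in the results was not tested beyond these fits. The Tbx2 slope on leukocyte markers was -0.44 (limma unadjusted p = 0.0384, adjusted p = 0.545). Slopes of the other tested Tbx genes went both ways. Tbx18 had -0.42 (limma unadjusted p = 0.00277, adjusted p = 0.24) and Tbx1 -0.41 (limma unadjusted p = 0.0186, adjusted p = 0.455). Tbx15 had -0.18 (limma unadjusted p = 0.0453, adjusted p = 0.569). Tbx4 had -0.26 (limma unadjusted p = 0.124, adjusted p = 0.703), Tbx3 -0.08, Tbx5 0.08 and Tbx20 0.28. Hoxc8 had a slope of 0.47 on fibroblast markers (limma unadjusted p = 0.0612, adjusted p = 0.718) and of -0.19 on leukocyte markers (limma unadjusted p = 0.251, adjusted p = 0.801). With the fibroblast mean in the fit, Hoxc8 differed by 0.64 between Combo and MYCi975, by 0.57 between Combo and TMP195 and by 0.16 between Combo and Vehicle. Beside the leukocyte mean, Hoxc8 in TMP195 differed from Vehicle by -0.32 instead of -0.48. Combo then exceeded TMP195 by 0.59 and MYCi975 by 0.7, and the interaction was 1.02.

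Among the other Tbx genes, Tbx4 had the smallest F-test p. This gene, which with Tbx5 starts the lung bud mesenchyme, had levels of 7.48, 6.87, 7.80 and 7.48 in Combo, 7.6, 7.9, 7.71 and 7.55 in MYCi975, 6.80, 7.59, 7.0 and 7.06 in TMP195, and 7.27, 7.30, 7.67 and 7.21 in Vehicle. Its 4 groups overlapped in each comparison with Vehicle, with differences of 0.04 in Combo, 0.33 in MYCi975 and -0.25 in TMP195. Tbx4 had an F-test p of 0.0647 before adjustment (limma adjusted p = 0.999). Tbx1 had levels of 5.54, 5.62, 5.89 and 5.86 in Combo, 5.88, 5.83, 4.84 and 5.57 in MYCi975, 5.57, 5.33, 5.8 and 6.14 in TMP195, and 5.69, 5.82, 6.0 and 5.7 in Vehicle. It differed from Vehicle by -0.08 in Combo, -0.27 in MYCi975 and -0.09 in TMP195, and MYCi975 replicate 3 stood at the minimum of 4.84.

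**Figure D3:**
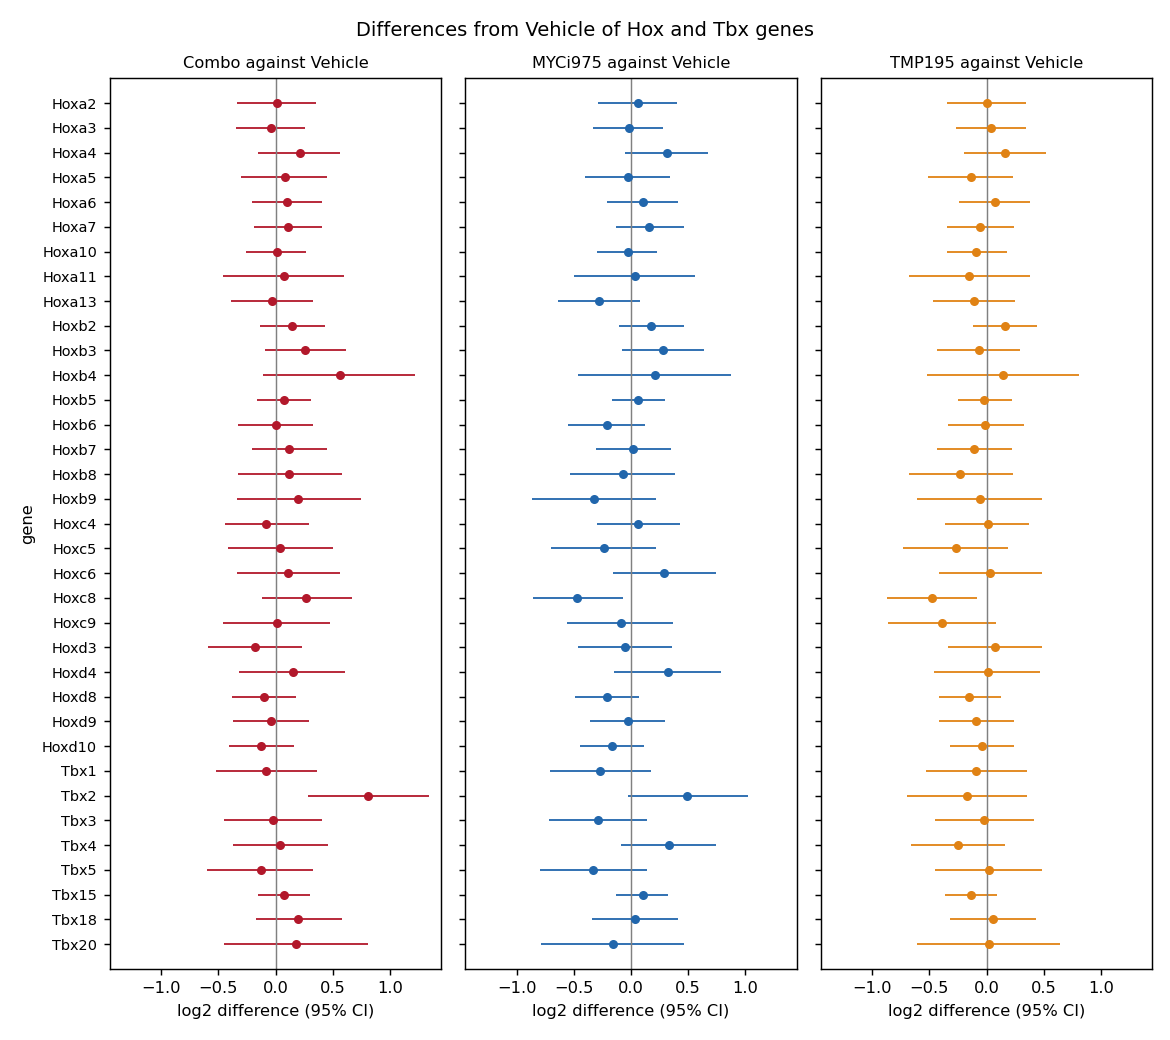
Difference from Vehicle on the log2 scale (points) with 95% interval (bars) for the tested genes reported here, in Combo, MYCi975 and TMP195. The interval excludes 0 for Tbx2 in Combo (0.28 to 1.34) and for Hoxc8 in MYCi975 (-0.86 to -0.07) and in TMP195 (-0.87 to -0.08), before any adjustment for the number of genes.

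The Hoxa genes differed little across treatments. The mean of the 10 Hoxa genes differed from Vehicle by 0.06 in Combo, 0.02 in MYCi975 and -0.02 in TMP195, and the groups overlapped. Hoxa4 had levels of 6.6, 6.51, 6.83 and 6.27 in Combo, 6.87, 6.64, 6.69 and 6.43 in MYCi975, 6.52, 6.29, 6.74 and 6.47 in TMP195, and 6.20, 6.79, 6.35 and 6.05 in Vehicle. It exceeded Vehicle by 0.31 in MYCi975 (95% interval -0.05 to 0.67), and the groups overlapped. Hoxa13 had levels of 5.69, 5.61, 6.02 and 6.02 in Combo, 5.71, 5.22, 5.66 and 5.76 in MYCi975, 5.61, 5.84, 5.75 and 5.85 in TMP195, and 5.79, 5.86, 5.52 and 6.31 in Vehicle. It differed from Vehicle by -0.28 in MYCi975 (95% interval -0.64 to 0.08), which was -0.16 without MYCi975 replicate 2 and -0.13 without Vehicle replicate 4. Hoxa5, which in the mouse is needed for lung morphogenesis, lay between 8.19 and 8.96 over the 16 libraries.

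Hoxb genes had the widest mean difference with the combination. The mean of the 8 Hoxb genes was 7.28, 7.21, 7.25 and 7.22 in Combo, 7.17, 7.10, 6.98 and 7.02 in MYCi975, 7.30, 7.14, 6.97 and 6.70 in TMP195, and 7.24, 6.90, 7.16 and 6.91 in Vehicle. The Combo libraries were closely grouped and lay above all MYCi975 libraries, which was seen only after the values were examined, and they overlapped TMP195 and Vehicle. The mean difference from Vehicle was 0.19 in Combo, 0.02 in MYCi975 and -0.02 in TMP195. In Combo all 8 Hoxb genes had a difference from Vehicle of 0.00 or above, up to 0.56 for Hoxb4 (95% interval -0.11 to 1.22 in a fit that leaves out the replicate number), and 47.4% of all genes were higher in Combo.

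Hoxb3 had levels of 7.45, 7.92, 8.09 and 7.71 in Combo, 7.75, 7.61, 8.06 and 7.80 in MYCi975, 7.58, 7.27, 7.34 and 7.65 in TMP195, and 7.81, 7.19, 7.71 and 7.40 in Vehicle. It exceeded Vehicle by 0.26 in Combo (95% interval -0.09 to 0.62) and by 0.28 in MYCi975 (95% interval -0.08 to 0.64). Hoxb9 had levels of 6.91, 7.26, 7.08 and 7.37 in Combo, 6.77, 6.56, 6.25 and 6.93 in MYCi975, 7.67, 6.90, 6.82 and 6.16 in TMP195, and 7.38, 6.59, 7.17 and 6.66 in Vehicle. The TMP195 libraries of Hoxb9 covered the values of all other groups, and Combo exceeded MYCi975 by 0.53 (95% interval -0.02 to 1.08).

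**Figure D4:**
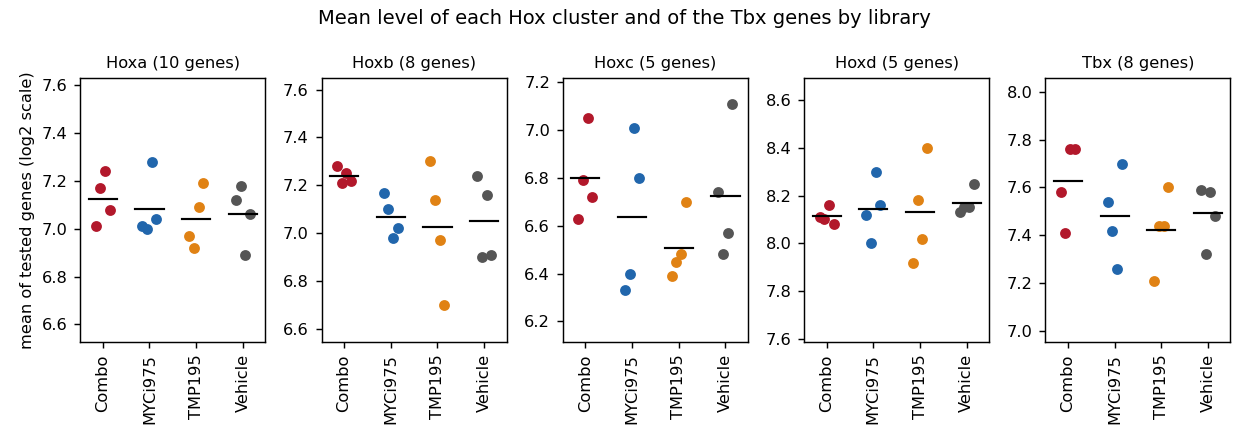
Mean level of the tested genes of each Hox cluster and of the Tbx genes (log2 scale) in each library (points) by group, with the group mean as a black line. The Combo libraries of the Hoxb mean sit between 7.21 and 7.28, and every group overlaps Vehicle in each of the plots.

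Hoxb4 differed between the replicate numbers of the libraries. Its levels were 9.13, 8.82, 8.82 and 8.64 in Combo replicates 1 to 4, 8.92, 8.51, 8.53 and 8.05 in MYCi975, 9.25, 8.81, 8.23 and 7.46 in TMP195, and 8.80, 8.15, 8.61 and 7.63 in Vehicle. In each group the library numbered 1 was the highest and the library numbered 4 the lowest. An F-test over the replicate numbers beside the group called 1 of 36 genes, Hoxb4 (limma adjusted p = 0.0276), and 509 of all genes (3.24%). At an unadjusted p under 0.05 it counted 6 of 36 genes (all genes 19.7%). The Hoxb4 call was lost without replicate 1 or replicate 4 of MYCi975, TMP195 or Vehicle, each left out alone, at limma adjusted p values of 0.0626 to 0.0989. What the replicate numbers stand for is not given in the labels.

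**Figure D5:**
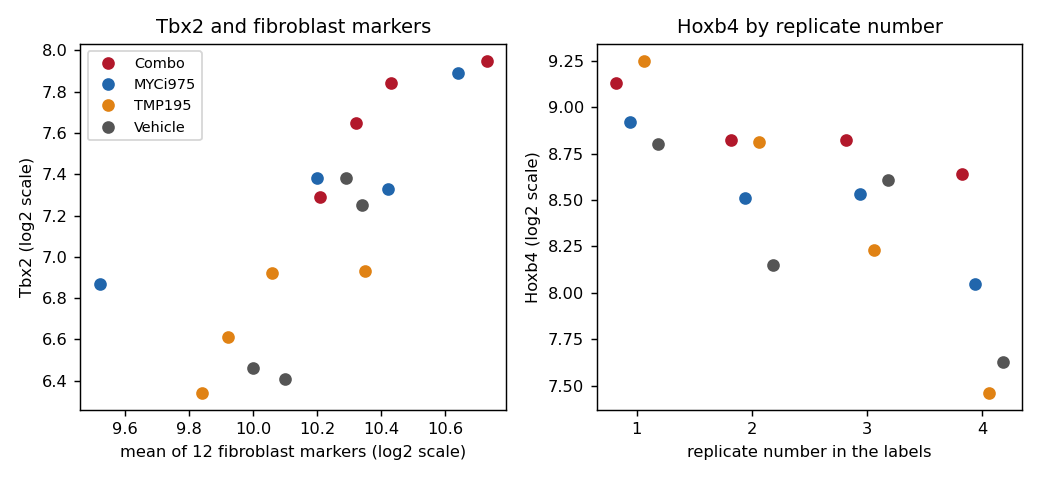
Left, level of Tbx2 against the mean level of 12 fibroblast markers in the same library, both on the log2 scale, coloured by group. Right, level of Hoxb4 by the replicate number in the labels. Tbx2 is highest in Combo replicate 3 (7.95 at a marker mean of 10.73), and Hoxb4 lies at 8.80 to 9.25 in libraries numbered 1 and at 7.46 to 8.64 in those numbered 4.

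Among Hoxc genes other than Hoxc8, no pair of groups was separated. The mean of the 5 Hoxc genes differed from Vehicle by 0.07 in Combo, -0.09 in MYCi975 and -0.22 in TMP195. With single libraries left out, these ranged from -0.01 (without Combo replicate 3 or Vehicle replicate 2) to 0.20 (without Vehicle replicate 4) in Combo, from -0.21 (without MYCi975 replicate 3) to 0.04 (without Vehicle replicate 4) in MYCi975, and from -0.30 (without Vehicle replicate 2) to -0.09 (without Vehicle replicate 4) in TMP195. Hoxc9 had levels of 5.98, 5.97, 5.99 and 5.73 in Combo, 5.60, 5.22, 6.40 and 6.04 in MYCi975, 5.42, 5.48, 5.39 and 5.77 in TMP195, and 5.75, 5.73, 5.67 and 6.48 in Vehicle. Its difference from Vehicle was -0.39 in TMP195 (95% interval -0.86 to 0.08), the widest in that comparison after Hoxc8. Hoxc6 spanned between 7.59 and 8.82, with its highest value in MYCi975 replicate 3.

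The Hoxd mean differed little, by -0.06 in Combo, -0.03 in MYCi975 and -0.04 in TMP195 from Vehicle. Hoxd4 had levels of 7.59, 7.65, 7.73 and 7.92 in Combo, 7.69, 7.29, 8.62 and 7.99 in MYCi975, 7.28, 7.80, 7.33 and 7.91 in TMP195, and 7.55, 7.39, 7.70 and 7.67 in Vehicle. Only MYCi975 replicate 3 stood above 8, and the groups overlapped, with a difference of 0.32 for MYCi975 against Vehicle (95% interval -0.15 to 0.79) that was 0.08 without that library and 0.52 without MYCi975 replicate 2. Hoxd8 had levels of 10.07, 9.89, 9.86 and 9.76 in Combo, 9.95, 9.78, 9.50 and 9.93 in MYCi975, 9.62, 9.75, 9.95 and 10.08 in TMP195, and 10.01, 10.03, 9.75 and 10.20 in Vehicle. Its difference from Vehicle was -0.21 in MYCi975 (95% interval -0.49 to 0.07), and -0.11 without MYCi975 replicate 3.

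Counted over all 36 genes, 26 were higher and 10 lower in Combo than in Vehicle, with a median difference of 0.071, against 47.4% of all genes higher and a median of -0.01. In MYCi975, 17 were higher and 19 lower (median -0.026), against 47.1% of all genes higher, and in TMP195, 13 were higher and 23 lower (median -0.05), against 46.3%. In Combo against TMP195, 29 were higher and 7 lower (median 0.094), against 50.7% of all genes higher. These comparisons share Vehicle or Combo libraries, neighbouring genes of a cluster are not independent, and the 36 genes are a set chosen with earlier results known.

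Promoter windows are shown because MYC binds the E-box and T-box proteins bind a half-site of their own, so that a reader can see which of these genes carry such letters beside the start of transcription. RefSeq (GRCm38.p6) windows of 250 bases before to 50 bases after the start were found for 20 of the 36 genes, with none in the table for Hoxc8 and Tbx2. The E-box CACGTG, which reads the same on both strands, stood in 7.15% of 32851 promoter windows and in those of 2 of the 20 genes, Hoxd4 and Hoxd10. The T-box half-site AGGTGTGA, searched on both strands, stood in 1.28% of windows and in that of 1 gene, Hoxd9. The 3 windows, 5′ to 3′ on the plus strand with the motif in capitals, are at chr2:74721728-74722027 (Hoxd4), chr2:74691641-74691940 (Hoxd10) and chr2:74697513-74697812 (Hoxd9).
Hoxd4: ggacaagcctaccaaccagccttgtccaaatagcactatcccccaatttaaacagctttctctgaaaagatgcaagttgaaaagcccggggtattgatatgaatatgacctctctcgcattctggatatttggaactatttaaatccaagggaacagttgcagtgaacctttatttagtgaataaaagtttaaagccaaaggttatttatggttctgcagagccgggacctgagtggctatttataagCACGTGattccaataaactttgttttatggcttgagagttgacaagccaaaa
Hoxd10: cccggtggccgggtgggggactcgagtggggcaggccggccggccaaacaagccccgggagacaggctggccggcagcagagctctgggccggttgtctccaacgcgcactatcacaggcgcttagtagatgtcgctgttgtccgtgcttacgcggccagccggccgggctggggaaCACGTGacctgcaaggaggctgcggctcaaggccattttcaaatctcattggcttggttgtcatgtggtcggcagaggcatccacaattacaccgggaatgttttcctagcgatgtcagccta
Hoxd9: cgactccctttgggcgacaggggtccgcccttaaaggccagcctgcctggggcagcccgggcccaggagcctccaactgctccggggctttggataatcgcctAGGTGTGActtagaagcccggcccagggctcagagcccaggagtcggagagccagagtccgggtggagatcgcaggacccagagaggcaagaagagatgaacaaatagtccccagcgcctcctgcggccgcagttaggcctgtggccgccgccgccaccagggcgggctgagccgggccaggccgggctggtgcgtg

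With the MYC inhibitor, Hoxd4 differed from Vehicle by 0.32 (95% interval -0.15 to 0.79) and Hoxd10 by -0.17 (95% interval -0.45 to 0.11). Without MYCi975 replicate 3 the Hoxd4 difference was 0.08. Hoxd9 differed from Vehicle by -0.04 in Combo, -0.03 in MYCi975 and -0.09 in TMP195. A match to these letters is a description of the window and shows no binding.

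The genes that work with Hox and T-box proteins did not pass the test either. Of 10 tested TALE-class cofactors, which bind DNA together with Hox proteins, 0 were called by limma in any comparison with Vehicle (all genes 0.0%). Unadjusted p fell under 0.05 for 1 in Combo (all genes 4.09%), 0 in MYCi975 (all genes 3.03%) and 1 in TMP195 (all genes 4.88%). Meis1, one of these cofactors, had levels of 10.63, 11.18, 10.92 and 10.95 in Combo and 10.67, 10.18, 10.66 and 10.45 in Vehicle, a difference of 0.43 (SE 0.13, limma unadjusted p = 0.00507, adjusted p = 0.987). Pknox1, another cofactor, differed from Vehicle by -0.27 in TMP195 (limma unadjusted p = 0.0153, adjusted p = 0.945). Meis2 differed from Vehicle by 0.27 in Combo.

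Of 32 Polycomb proteins, which keep Hox genes silent, 0 were called (all genes 0.0%). At unadjusted p under 0.05, MYCi975 had 0 (all genes 3.03%), Combo 1 (all genes 4.09%) and TMP195 1 (all genes 4.88%). In both cases it was Cbx2. Cbx2, the reader of H3K27 methylation, had levels of 7.68, 7.77, 7.67 and 7.6 in Combo, 7.67, 8.16, 8.10 and 8.16 in MYCi975, 7.74, 7.84, 7.79 and 7.51 in TMP195, and 7.96, 7.89, 8.0 and 8.16 in Vehicle. Every Combo and every TMP195 library lay below every Vehicle library, and MYCi975 overlapped Vehicle. Such separation from Vehicle was seen in 3.32% of all genes for Combo and 2.5% for TMP195, and Cbx2 was picked from 32 genes. The differences were -0.32 in Combo (limma unadjusted p = 0.0231, adjusted p = 0.987) and -0.28 in TMP195 (limma unadjusted p = 0.0434, adjusted p = 0.945). Other members with the smallest p were Mtf2 (0.23 in Combo, 0.25 in TMP195), Cbx7 (0.24 in MYCi975) and Rbbp7 (-0.22 in MYCi975).

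Of 16 Trithorax proteins and H3K27 demethylases, which keep Hox genes active, 0 were called (all genes 0.0%). At unadjusted p under 0.05, MYCi975 had 0 (all genes 3.03%), TMP195 0 (all genes 4.88%) and Combo 2 (all genes 4.09%). They were the methyltransferase gene Kmt2c, at 0.43 (limma unadjusted p = 0.0116, adjusted p = 0.987), and Wdr5, at -0.34 (limma unadjusted p = 0.0245, adjusted p = 0.987). In MYCi975, Kdm6a differed from Vehicle by -0.22 and Kmt2c by 0.20, and in TMP195 Dpy30 differed by -0.32 and Mllt3 by -0.26. Of 11 tested genes of retinoic acid signalling, which switches on the first Hox genes in the embryo, 0 were called (all genes 0.0%). At unadjusted p under 0.05, MYCi975 had 0 (all genes 3.03%), TMP195 0 (all genes 4.88%) and Combo 1 (all genes 4.09%). That gene, Rdh10, which makes retinaldehyde, differed from Vehicle by 0.41 (limma unadjusted p = 0.0189, adjusted p = 0.987). Dhrs3 differed from Vehicle by 0.25 in Combo and 0.16 in TMP195, Rarb by -0.44 in MYCi975 and Stra6 by -0.34 in TMP195.

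Of 4 tested genes that Tbx2 or Tbx3 repress, 0 were called (all genes 0.0%). At unadjusted p under 0.05, Combo had 0 (all genes 4.09%), MYCi975 0 (all genes 3.03%) and TMP195 1 (all genes 4.88%). Ndrg1 differed from Vehicle by 0.56 in TMP195 (limma unadjusted p = 0.0412, adjusted p = 0.945) and by -0.17 in Combo (SE 0.25, limma unadjusted p = 0.522, adjusted p = 0.988). Gja1 differed from Vehicle by -0.25 in MYCi975. Mga, a MAX partner with a T-box domain, differed from Vehicle by -0.08 in Combo, -0.01 in MYCi975 and 0.09 in TMP195.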

How the data were processed

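The authors deposited 1 table of 24334 mouse genes with log2-scale variance-stabilised values, 1 column per library, and 23150 identifiers matched a symbol. Salmon (no version) and the build hg38 are named per the submitters' processing notes, although the samples are mouse. The tool behind the stabilisation is not given in the sources used here. Total counts are unknown, so no count test or counting interval was possible. No library was a copy of another, as even the closest 2 differed by 0.202 per gene on average.

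Genes at least 1 above the minimum of 4.84 in 4 or more libraries were tested (15715 genes). The model, fitted by limma 3.58.1 (R 4.3.3) to the 16 libraries together, gave each group its mean, with an intensity trend, two-sided p-values and Benjamini-Hochberg adjustment within each comparison. Calls had an adjusted p under 0.05. Means of marker genes were added beside the group to give slopes, and replicate number was tested the same way; these fits were added after the data were seen. The code was tested on simulated data.

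Exon sharing and chromosomes came from GENCODE M21, and promoter windows from RefSeq. Alternatives were other filters, scalings, moderation, weights, covariates, a replicate block and leaving out libraries. Named genes are those with an unadjusted p under 0.05, the 2 genes per cluster with the smallest F-test p, the genes at the edge of the threshold, and the 2 genes of smallest p per cofactor list. The genes and lists were chosen with earlier results of these data known. Some genes are counted but not reported here by name.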

Additional observations from a re-analysis of the deposited data

Results flagged for a closer look

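In 60 groups of 4 libraries, 5 had 1 library set apart from the other 3 by Dixon's ratio, where chance gives about 1 in 20. For Hoxc8 it was MYCi975 replicate 4, at 6.76, while the other 3 lay between 6.31 and 6.37. Hoxc9 was 5.73 in Combo replicate 4, against 5.97 to 5.99, and 6.48 in Vehicle replicate 4, against 5.67 to 5.75. The mean of the Hoxa genes was 7.28 in MYCi975 replicate 3, against 7.0 to 7.04. The mean of the Hoxd genes was 8.25 in Vehicle replicate 4, against 8.13 to 8.15.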

How the results depend on the processing

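The differences of the 20 named pairs of gene and comparison kept their sign in 404 of 405 recomputed values. The exception was Tbx2 in TMP195 against Vehicle, which was 0.18 with the leukocyte covariate. Under alternative settings, genes called among all genes were 65 with array quality weights and 1 without an intensity trend in Combo against TMP195, and 1 with the compared groups alone in Combo against Vehicle. The F-test called 1 gene with array quality weights, 1 with median centring, 1 without a trend and 1 with robust moderation. When single libraries were left out, calls ranged from 0 to 1 in Combo against MYCi975, 0 to 2 in Combo against TMP195, 0 to 1 in MYCi975 against Vehicle, 0 to 2 in TMP195 against Vehicle and 0 to 2 in the F-test. They ranged from 115 (without TMP195 replicate 4) to 725 for the replicate number, 43 (without MYCi975 replicate 3) to 86 for the leukocyte slope, 0 (without MYCi975 replicate 3) to 43 for the fibroblast slope and 0 to 1 for the T and NK slope. The leukocyte slope called 12 genes with the stricter filter, the fibroblast slope 14 without the libraries numbered 4, and the T and NK slope 1 with quantile normalization and 5 without the libraries numbered 4. With the stricter filter 21 Hox and Tbx genes passed, and Hoxc6, the only Hoxc gene left, differed from Vehicle by 0.29 in MYCi975 and 0.03 in TMP195. Except where a filter left fewer genes, the cause was not tested.

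The labels share replicate numbers 1 to 4 between groups. Deviations of same-numbered libraries correlated between -0.109 and 0.428, and not every pair exceeded 0.1, so the numbers were not taken to pair libraries. Those numbered 1 (0.202 to 0.428) and 4 (0.172 to 0.387) correlated best with their own number in all 5 comparisons, those numbered 2 in 2 and those numbered 3 in 0 of the 5. With a replicate block 0 genes were called in each treatment comparison. Hoxb4 then differed by 0.56 between Combo and Vehicle (SE 0.19, limma unadjusted p = 0.00977, adjusted p = 0.832), and within numbers 1 to 4 by 0.32, 0.67, 0.22 and 1.01. Between Combo and TMP195, Hoxb4 differed by 0.41 with the block (SE 0.19, limma unadjusted p = 0.043, adjusted p = 0.763). The unknown read depth limits what can be said of genes near the minimum.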

Other observations

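Genes next to the Hox and T-box programme were measured as well. Of 8 tested lung mesenchyme signals that work around Tbx4 and Tbx5, 0 were called by limma (all genes 0.0%). At unadjusted p under 0.05, Combo had 0 (all genes 4.09%), TMP195 0 (all genes 4.88%) and MYCi975 1 (all genes 3.03%). Gli2, a transcription factor of hedgehog signalling, had levels of 8.72, 8.85, 9.21 and 9.57 in MYCi975 and 8.54, 7.84, 9.07 and 8.03 in Vehicle, a difference of 0.72 (SE 0.23, limma unadjusted p = 0.00706, adjusted p = 0.999). Its groups overlapped. Ptch1, the hedgehog receptor, differed from Vehicle by -0.23 in Combo and -0.30 in MYCi975. Wnt2 and Fgf10 differed from Vehicle by 0.23 and 0.36 in TMP195.

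Of 6 tested long noncoding RNAs of the Hox clusters, 0 were called against Vehicle (all genes 0.0%). At unadjusted p under 0.05, Combo had 0 (all genes 4.09%), MYCi975 0 (all genes 3.03%) and TMP195 0 (all genes 4.88%). Hoxd3os1 differed from Vehicle by 0.21 in Combo and 0.23 in MYCi975, Hoxaas3 by 0.21 in Combo and -0.14 in MYCi975, Hoxb3os by -0.25 in TMP195 and Hotairm1 by 0.26 in TMP195. Whether the quantification used strand is not given in the sources used here, so reads of these antisense RNAs and their neighbours cannot be told apart.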
